A study of Mus musculus with 4 samples.

Results

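The 49 genes described here encode splicing factors and heterogeneous nuclear ribonucleoproteins (hnRNPs). They were chosen by symbol alone, as the genes named Srsf with a number, Hnrnp, Sf3a or Sf3b with a number, Snrp followed by a letter from a to g, or U2af, among 19938 genes measured on the arrays. RNA was profiled on 4 Affymetrix arrays. The cells were KLS cells of mouse bone marrow, that is Lin- c-Kit+ Sca-1+ by flow sorting, a population enriched in blood stem cells and multipotent progenitors. Of these, 2 arrays were labelled Klf7-/- (KLF7 KO) and 2 Klf7+/+ (wild type, WT), all on the C57Bl/6 strain background. Cells of both genotypes came from chimeras that had been built with fetal liver cells and carried Klf7-/- and Klf7+/+ bone marrow together, so the WT arrays are also from chimeras and not from untouched mice. Klf7 encodes a Kruppel-like zinc finger transcription factor. The labels do not give the age of the mice, the number of mice or donors pooled into an array, or which part of Klf7 was deleted. The p-values below therefore rest on the spread between arrays, with variance shared across probe sets, and that spread may be technical.

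Splicing removes introns from precursor RNA in the nucleus. The U1 particle binds the 5' splice site, U2AF binds the 3' splice site and brings the U2 particle to the branch site, where the SF3A and SF3B subunits hold it. A ring of Sm proteins forms the core of most spliceosomal particles. SR proteins mostly promote the use of nearby exons, while hnRNPs coat nascent RNA and often oppose them. The factors Sf3b1, Srsf2, U2af1 and Zrsr2 are known in hematology because their human counterparts are recurrently mutated in myelodysplastic syndromes. Of these, Zrsr2 was not analysed here, nor were Srsf7, Snrpf, Hnrnpa1, Hnrnpa3 and Hnrnph3, for which no probe set with a single symbol was used.

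None of the 49 splicing genes passed the limma threshold of 0.05 for the adjusted p in the comparison of Klf7-/- with WT arrays. Over all genes 0.00502% were called, which is 1 gene of 19938. That gene was Xist, the X-inactivation RNA, higher in Klf7-/- arrays at a limma adjusted p of 0.0454. It differs with donor sex, which cannot be told apart from genotype here. The smallest adjusted p among the splicing genes was 0.945, and 3 of the 49 had an unadjusted limma p under 0.05, a share of 6.12% beside 4.81% over all genes. The log2 difference (Klf7-/- minus WT) was above 0 for 27 genes and below 0 for 22, with a median of 0.02, beside a median of -0.03 over all genes, of which 45% lay above 0. The 27 became 25 with cyclic loess and 23 with quantile normalization again, so the balance of directions is not settled. No splicing gene was more than 2-fold apart: the differences ran from -0.87 for Sf3b5 to 0.67 for U2af2. Both Klf7-/- arrays lay above both WT arrays for 11 genes and below them for 7. These counts stand beside 14.5% and 18.6% of all genes, so 36.7% of the splicing genes were without overlap against 33.2% of all genes. The 95% confidence interval lay within a 2-fold change in either direction for 33 of the 49 genes and within a 1.5-fold change for 17.

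**Figure D1:**
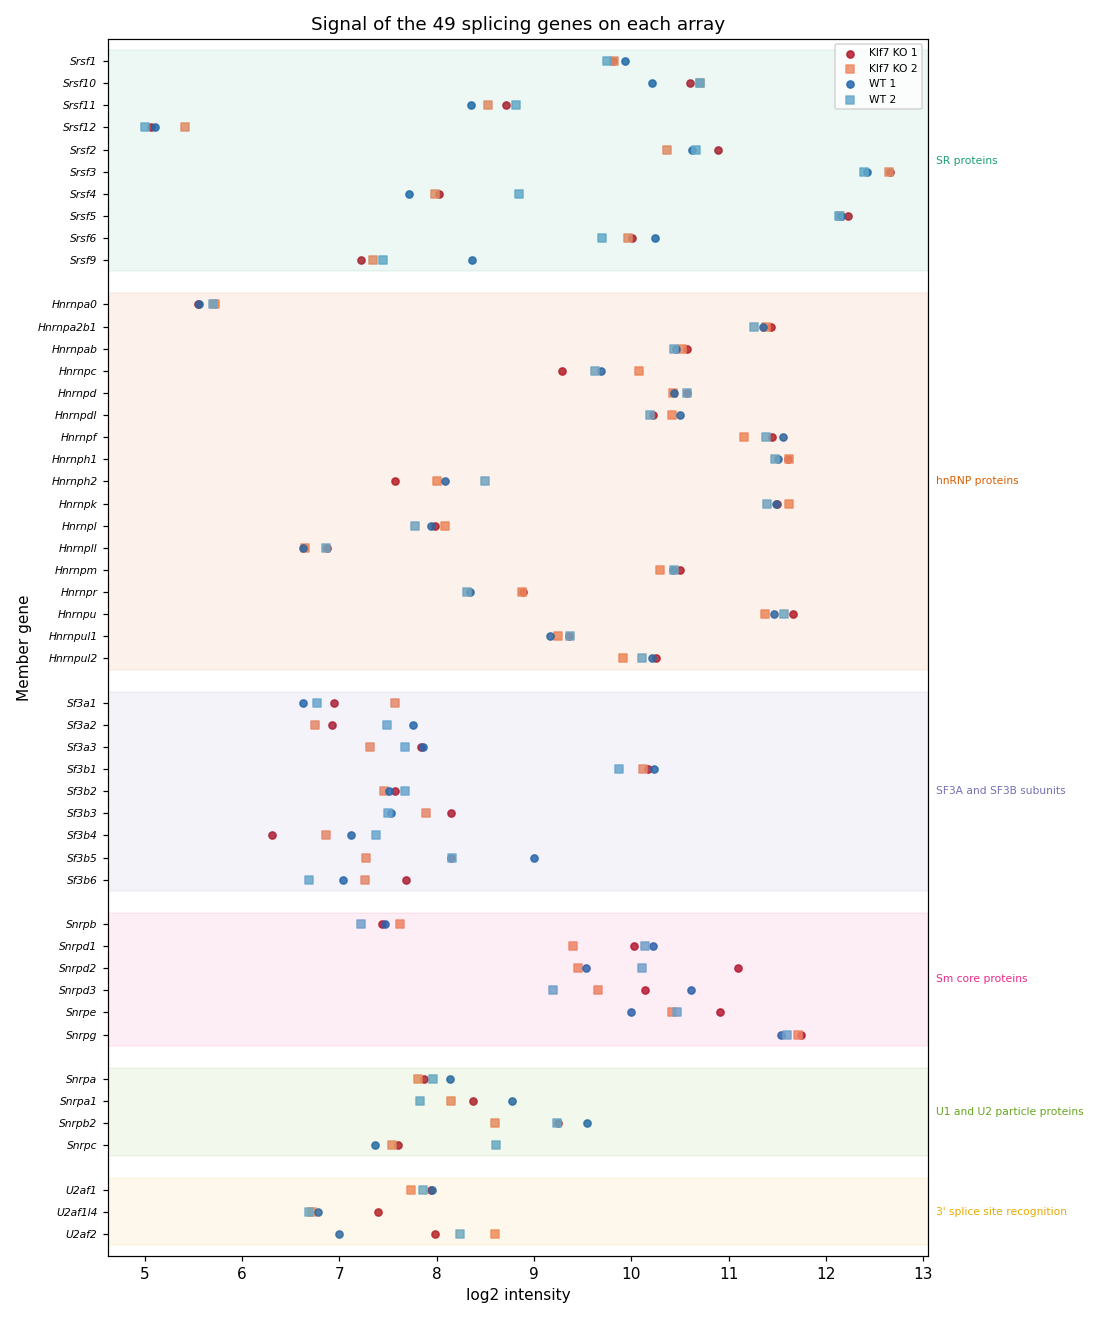
Log2 intensity (x axis) of each of the 49 splicing genes (y axis, shaded by class) on the 2 Klf7-/- arrays (red and orange) and the 2 WT arrays (dark and light blue). For most genes the 4 points lie close together or interleave; Hnrnpr, Srsf3 and Sf3a2 show the groups apart, and Snrpd2 has one Klf7-/- array, at 11.09, away from the rest.

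The arrays that read highest and lowest did not follow genotype. The highest of the 4 readings came from Klf7-/- replicate 1 for 16 splicing genes, from Klf7-/- replicate 2 for 10, from WT replicate 1 for 15 and from WT replicate 2 for 8. The lowest reading came from them for 5, 15, 10 and 19 genes in that order. Over all genes Klf7-/- replicate 1 gave the highest reading for 19.8% and the lowest for 30.4%, beside 32.7% and 10.2% of splicing genes, and WT replicate 2 gave the highest for 30.7%, beside 16.3%. The median gap between the 2 arrays of a group was 0.20 in Klf7-/- and 0.17 in WT for splicing genes, beside 0.21 and 0.23 over all genes. The median absolute difference between genotypes was 0.17 for splicing genes, beside 0.16 over all genes. It is taken between means of 2 arrays, so it cannot be set directly against a gap between single arrays.

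The upstream sequences of 3 genes are shown because these genes had the groups clearly apart on the probe set used, the brightest. A dimmer Srsf3 probe set overlapped between groups. Sf3a2 had the smallest unadjusted p of the genes lower in Klf7-/- arrays, Hnrnpr the smallest of those higher, and Srsf3 was the one SR gene higher in Klf7-/- without overlap. KLF proteins bind GC-rich boxes and CACCC boxes in DNA. Capitals mark every match to CACCC or GGGCGG on either strand (also read as GGGTG or CCGCCC) in the 250 bases before the annotated start, 5' to 3' on the gene's strand, from RefSeq on GRCm38.p6. The windows are chr10:80798485-80798734 on the plus strand for Sf3a2, chr4:136310692-136310941 on the plus strand for Hnrnpr (the first of 2 entries) and chr17:29032410-29032659 on the plus strand for Srsf3.
Sf3a2: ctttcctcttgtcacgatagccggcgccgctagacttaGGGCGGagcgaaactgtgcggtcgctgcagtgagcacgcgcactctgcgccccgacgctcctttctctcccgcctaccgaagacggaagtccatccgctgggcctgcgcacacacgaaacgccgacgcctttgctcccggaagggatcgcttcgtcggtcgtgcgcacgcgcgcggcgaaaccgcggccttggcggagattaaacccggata
Hnrnpr: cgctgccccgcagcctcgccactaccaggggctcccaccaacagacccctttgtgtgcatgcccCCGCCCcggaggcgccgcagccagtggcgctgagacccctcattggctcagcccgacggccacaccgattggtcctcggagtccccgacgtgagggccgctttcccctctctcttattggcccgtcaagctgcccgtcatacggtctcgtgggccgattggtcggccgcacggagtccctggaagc
Srsf3: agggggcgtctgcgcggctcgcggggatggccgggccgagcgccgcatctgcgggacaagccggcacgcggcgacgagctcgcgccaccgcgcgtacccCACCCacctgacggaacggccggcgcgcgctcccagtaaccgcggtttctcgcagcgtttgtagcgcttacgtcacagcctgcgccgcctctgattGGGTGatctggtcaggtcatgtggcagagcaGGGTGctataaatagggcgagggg

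The Sf3a2 window held 0 matches to CACCC and 1 to GGGCGG, and the Hnrnpr window also held 0 and 1. The Srsf3 window held 3 matches to CACCC and 0 to GGGCGG. Of the 49 splicing genes, 42 had a promoter entry, and with the first entry of each gene 69% of these held GGGCGG and 42.9% held CACCC. The shares were 42.7% and 53.2% over 17492 protein-coding genes, whose windows were also less GC-rich, at 55.1% G and C against 61.7% for the splicing genes. A match is a description of letters and not a binding site.

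Among the 10 SR genes, 6 lay above 0 and 4 below, with a median difference of 0.03, or 5 and 5 with either further normalization. Srsf3, the smallest classical SR protein, read 12.66 and 12.65 in Klf7-/- arrays, against 12.42 and 12.39 in WT arrays (log2 intensity). Its groups were apart by far more than the gap within either, although the difference was only 0.25 ± 0.15 (SE, n = 2 per group), a 1.19-fold change, and the limma adjusted p was 0.953. A second Srsf3 probe set gave 0.26 without overlap, and the third, dimmer one gave 0.09 with overlapping groups. The moderated SE of the brightest probe set is wider than the gap within either of its groups, because limma shares variance across all probe sets. Srsf9, an SR protein with a short RS domain, read 7.23 and 7.34 in Klf7-/- arrays, against 8.36 and 7.45 in WT arrays. The difference of -0.62 ± 0.34 (SE) rested on the high WT replicate 1 and was -0.16 without it.

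Srsf2, which binds exonic enhancers and is a recurrent target of mutation in human myeloid disease, read 10.90 and 10.36 in Klf7-/- arrays, against 10.63 and 10.66 in WT arrays. The WT readings fell between the Klf7-/- readings, and the difference was -0.01 ± 0.23 (SE, 95% confidence interval -0.62 to 0.59). Srsf1, the founding SR protein, differed by -0.03, Srsf5 by 0.05, Srsf6 by 0.02 and Srsf11 by 0.04, all with overlapping groups. Srsf10, an SR protein linked to splicing repression, differed by 0.20. Srsf4 differed by -0.28 because WT replicate 2 read 8.85 and the other 3 arrays 7.72 to 8.03. Srsf12 was the dimmest SR gene, at 5.01 to 5.41 on the 4 arrays, and was the one SR gene below the median of every array's tested probe sets.

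The 17 hnRNP genes gave the narrowest differences of any class. Their median absolute difference was 0.07, beside 0.16 over all genes, and 16 of the 17, all but Hnrnph2, had a 95% confidence interval within a 2-fold change. The directions were 11 above 0 and 6 below, or 8 and 9 with quantile normalization again. Hnrnpr and Hnrnph2 were the 2 that differed by more than 0.5. Hnrnpr, an RNA-binding protein with acidic and RGG-rich regions, read 8.89 and 8.87 in Klf7-/- arrays, against 8.34 and 8.31 in WT arrays. The groups were apart by many times the gap within either. The difference was 0.56 ± 0.15 (SE, 95% confidence interval 0.16 to 0.95; 1.47-fold), and it stayed between 0.54 and 0.57 whichever array was left out. The unadjusted limma p was 0.0164 and the adjusted p 0.945.

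Hnrnph2, a G-tract binding protein and the one splicing gene here on the X chromosome, read 7.57 and 8.0 in Klf7-/- arrays, against 8.08 and 8.50 in WT arrays. The difference of -0.51 ± 0.25 (SE) was little more than the gaps within the groups, 0.43 in Klf7-/- and 0.41 in WT, and was -0.29 without Klf7-/- replicate 1 and -0.30 without WT replicate 2. The gene's other probe set gave -0.01 with overlapping groups. Xist, the X-inactivation RNA, and Y-linked genes also separated the groups. Genotype and donor sex therefore cannot be told apart for this X-linked gene. Hnrnpl, a CA-repeat binding repressor, read 7.98 and 8.09 in Klf7-/- arrays, against 7.95 and 7.78 in WT arrays, a difference of 0.18 ± 0.16 (SE). Its groups nearly touched, and the value was 0.09 without WT replicate 2. Hnrnph1, Hnrnpa2b1, Hnrnpab and Hnrnpk were also higher in Klf7-/- without overlap, by 0.13, 0.11, 0.10 and 0.12. In all, 6 hnRNP genes were higher without overlap and 1 was lower, together 41.2% of the class beside 33.2% of all genes.

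The other hnRNP genes overlapped between groups. Hnrnpu, a nuclear scaffold protein, differed by 0.00277, Hnrnpd, which binds AU-rich elements, by -0.01 and Hnrnpm by -0.04. Hnrnpc, which binds uridine tracts, read 9.29 and 10.08 in Klf7-/- arrays, against 9.68 and 9.63 in WT arrays. Its Klf7-/- arrays therefore lay on both sides of the WT arrays, 0.79 apart, which was the widest gap within a group among the hnRNP genes. Hnrnpll, known in lymphocytes as a regulator of the Ptprc exons, differed by 0.02. The 4 probe sets of Hnrnpf gave -0.19 to -0.02 and the 3 of Hnrnpk gave 0.12 to 0.22.

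**Figure D2:**
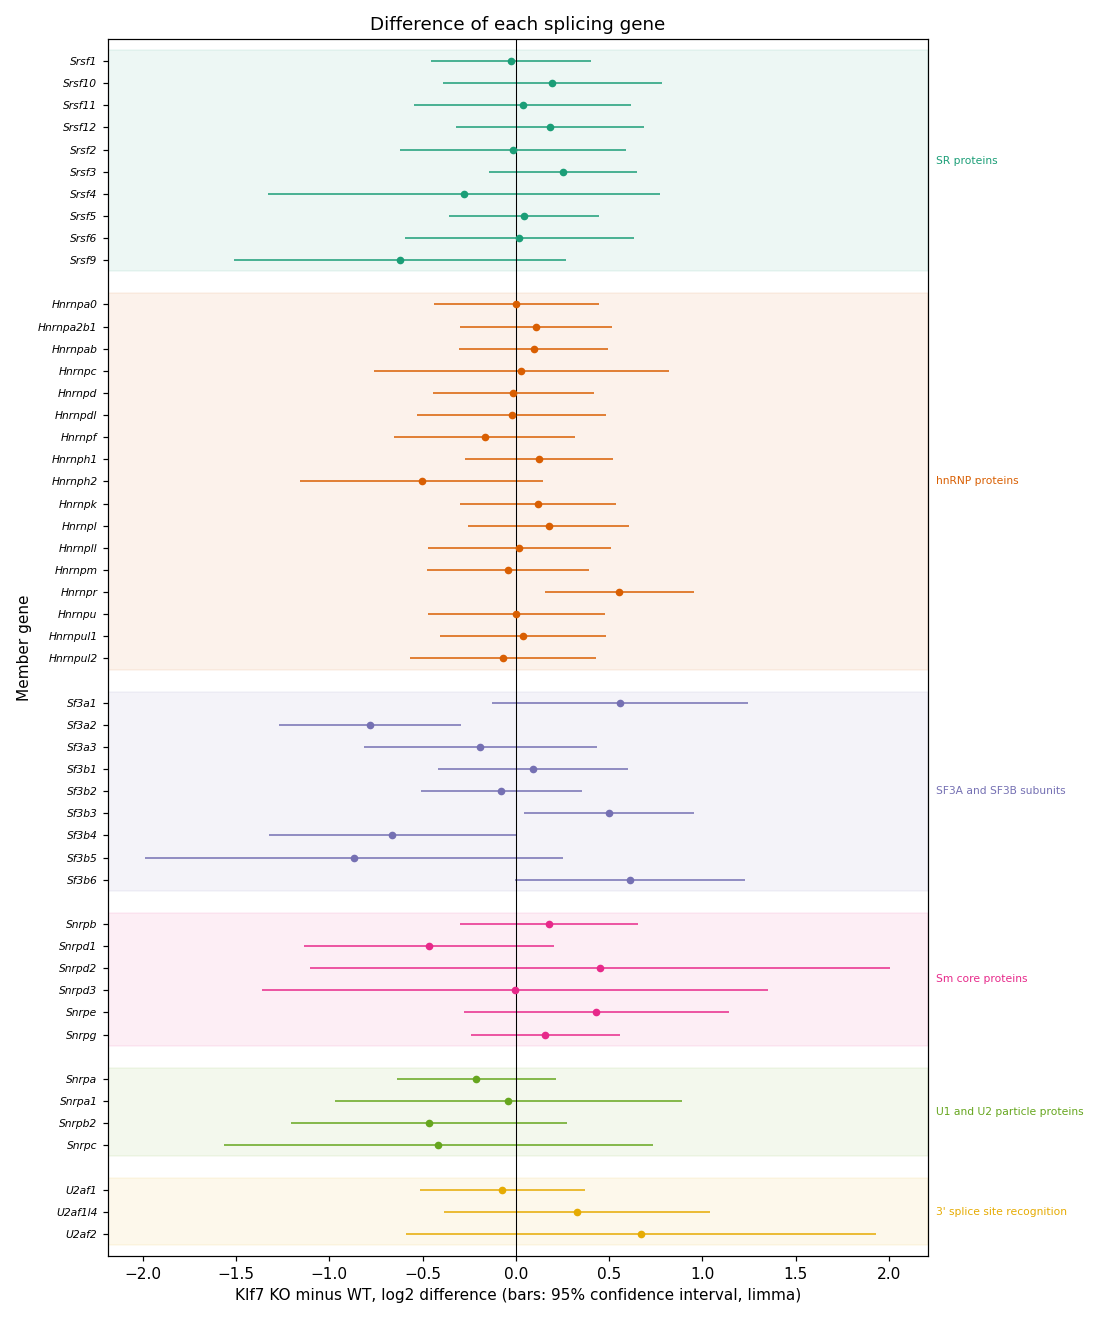
Log2 difference, Klf7-/- minus WT (x axis), for each splicing gene (y axis, by class), with bars for the 95% confidence interval from limma. The hnRNP genes cluster at 0 apart from Hnrnpr at 0.56 and Hnrnph2 at -0.51, while the SF3A and SF3B genes spread from -0.87 to 0.61.

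The SF3A and SF3B genes were spread more widely than any other class, in both directions. Of 9 genes, 6 differed by more than 0.5 on the log2 scale, beside 9.65% of all genes, and these 6 had no overlap between groups, 3 higher and 3 lower in Klf7-/-. That is 66.7% of the class without overlap, beside 33.2% of all genes. The count over 0.5 was 3 with an offset of 32 added to the intensities, beside 4.66% of all genes. It was 3 without Klf7-/- replicate 1 and 4 without any one of the other arrays, beside 13.6% to 16.1% of all genes. With dim probe sets left out it was 6, beside 14.2% of the genes kept. Sf3a2 was over 0.5 in each of these settings. None of the 9 passed the threshold, and their median was -0.08. These proteins act as one complex on the branch site. Over the 49 splicing genes, 10 differed by more than 0.5, so most of them came from this class.

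Sf3a2, the SF3A subunit that bridges to the U2 particle, read 6.93 and 6.75 in Klf7-/- arrays, against 7.76 and 7.49 in WT arrays. Both Klf7-/- readings were well below both WT readings. The difference was -0.78 ± 0.18 (SE, 95% confidence interval -1.27 to -0.30; 1.72-fold), with an unadjusted limma p of 0.00964 and an adjusted p of 0.945, and leaving out any one array gave -0.92 to -0.64. Sf3b5, a small SF3B subunit, read 8.15 and 7.28 in Klf7-/- arrays, against 9.0 and 8.16 in WT arrays. The higher Klf7-/- and the lower WT reading almost met, and the difference of -0.87 ± 0.43 (SE) ran from -1.30 to -0.43 with an array left out. Sf3b4, which contacts RNA near the branch site, read 6.31 and 6.87 in Klf7-/- arrays, against 7.12 and 7.37 in WT arrays, a difference of -0.66 ± 0.25 (SE). That became -0.38 without Klf7-/- replicate 1. Its second probe set gave the opposite sign, 0.30, at nearly the same brightness, and the mean of both gave -0.18, so the direction for Sf3b4 is not settled.

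Sf3b3, a large scaffold subunit of SF3B, read 8.14 and 7.89 in Klf7-/- arrays, against 7.53 and 7.50 in WT arrays. The groups were apart, with a difference of 0.50 ± 0.17 (SE, 95% confidence interval 0.04 to 0.96), an unadjusted limma p of 0.0374 and an adjusted p of 0.945. Sf3b6, the subunit that contacts the branch site adenosine, read 7.68 and 7.26 in Klf7-/- arrays, against 7.04 and 6.69 in WT arrays, a difference of 0.61 ± 0.23 (SE) that was 0.40 without Klf7-/- replicate 1. Sf3a1 read 6.95 and 7.57 in Klf7-/- arrays, against 6.63 and 6.78 in WT arrays. Its difference of 0.56 ± 0.26 (SE) leaned on Klf7-/- replicate 2 and was 0.24 without it.

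Sf3b1, the SF3B scaffold that is the splicing gene most often mutated in human myelodysplasia, was not among them. It read 10.18 and 10.12 in Klf7-/- arrays, against 10.24 and 9.87 in WT arrays. The Klf7-/- readings fell between the WT readings, and the difference was 0.09 ± 0.19 (SE, 95% confidence interval -0.42 to 0.60). Sf3b2 and Sf3a3, which sit beside these proteins in the complex, differed by -0.08 and -0.19 with overlapping groups.

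The 3 genes of 3' splice site recognition overlapped between groups. U2af2, the large subunit that binds the polypyrimidine tract, read 7.98 and 8.60 in Klf7-/- arrays, against 7.0 and 8.24 in WT arrays. The largest positive difference of all the splicing genes, 0.67 ± 0.48 (SE), thus came from 1 low WT array and was 0.05 without WT replicate 1. U2af1, the small subunit that reads the AG at the intron end, read 7.94 and 7.73 in Klf7-/- arrays, against 7.95 and 7.86 in WT arrays. Its difference was -0.07 ± 0.17 (SE, 95% confidence interval -0.51 to 0.37), and both of its probe sets gave -0.07. U2af1l4, a U2af1 paralogue, read 7.40 in Klf7-/- replicate 1 and 6.69 to 6.78 on the other 3 arrays.

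Sm core genes lay a median of 0.48 apart between the 2 Klf7-/- arrays and 0.36 apart between the 2 WT arrays. Their median absolute difference between genotypes was 0.31, which is taken between means of 2 arrays and so is not directly comparable. Snrpd2 read 11.09 and 9.45 in Klf7-/- arrays, against 9.53 and 10.11 in WT arrays. Klf7-/- replicate 1 stood above all the others, and this held on each of the gene's 5 probe sets, where it exceeded Klf7-/- replicate 2 by at least 1 log2 unit. The Snrpd2 difference of 0.45 ± 0.59 (SE) became -0.37 without that array. Snrpd1 read 10.03 and 9.40 in Klf7-/- arrays, against 10.22 and 10.15 in WT arrays, a difference of -0.47 ± 0.26 (SE). Both Klf7-/- readings were lower, but the value was -0.16 without Klf7-/- replicate 2. Snrpe read 10.91 and 10.42 in Klf7-/- arrays, against 9.99 and 10.47 in WT arrays, with a difference of 0.43 that was 0.19 without Klf7-/- replicate 1 and also without WT replicate 1. Snrpd3 differed by -0.01 with WT readings 1.42 apart, Snrpb by 0.18 and Snrpg by 0.16, the last without overlap.

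The same array difference was larger in the Lsm genes, which encode Sm-like proteins of the U6 and U7 particles and of RNA decay and were looked at as a group after their values were seen. Klf7-/- replicate 1 exceeded Klf7-/- replicate 2 for 5 of 6 Sm core genes, with a median gap of 0.48, and for 8 of 10 Lsm genes, with a median gap of 1.00. Over all genes this was so for 44%, with a median gap of -0.04, and for 10 of 17 hnRNP genes with 0.04. It was also so for 34 of the 49 splicing genes, with 0.07, so the direction was not particular to Sm and Lsm genes. Among them were 7 of 9 SF3A and SF3B genes, with 0.17, and 4 of 4 U1 and U2 particle genes, with 0.15. For SR genes it was 6 of 10, with 0.02. Lsm8 read 9.39 and 7.79 in Klf7-/- arrays, against 8.90 and 8.59 in WT arrays. Lsm7 read 9.94 and 8.57 in Klf7-/- arrays, against 9.07 and 9.18 in WT arrays. In both, the WT readings lay between the Klf7-/- readings, so the mean over the Klf7-/- group hides a spread of over 1 log2 unit, whose cause was not tested.

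**Figure D3:**
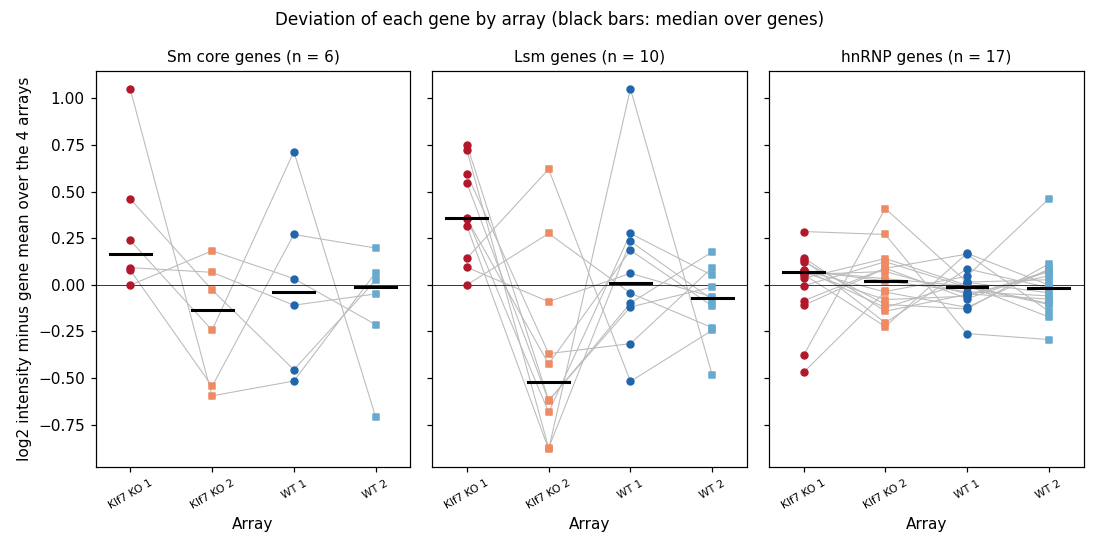
Log2 intensity minus each gene's mean over the 4 arrays (y axis) for Sm core, Lsm and hnRNP genes on each array (x axis, Klf7-/- left, WT right), with black bars for the median over genes and grey lines joining one gene's readings. Sm core and Lsm genes sit higher on Klf7-/- replicate 1 than on replicate 2, by a median of 0.48 and 1.00, and the medians of hnRNP genes stay near 0 on all 4 arrays.

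The 4 genes classed by symbol as U1 and U2 particle proteins all lay below 0, with a median of -0.31. The signs held with both further normalizations and with an offset of 32, but not for Snrpa1 and Snrpc with single arrays left out. Of the 4, only Snrpa was without overlap. Snrpa, a U1 stem-loop binding protein, read 7.87 and 7.81 in Klf7-/- arrays, against 8.14 and 7.97 in WT arrays, a difference of -0.21 ± 0.16 (SE). Snrpb2, its U2 counterpart, read 9.25 and 8.60 in Klf7-/- arrays, against 9.54 and 9.24 in WT arrays, so the groups just overlapped at a difference of -0.47 ± 0.28 (SE), which was -0.14 without Klf7-/- replicate 2. Snrpc, which steadies the U1 pairing with the 5' splice site, differed by -0.42 ± 0.44 (SE) on its brightest probe set, where WT replicate 2 read 8.61 and the other 3 arrays 7.37 to 7.61. Its other probe sets gave 0.05 and 0.12, and the brightest gave 0.21 without WT replicate 2. Snrpa1, the U2 partner of Snrpb2, differed by -0.04 ± 0.35 (SE), and by 0.07 without Klf7-/- replicate 2 and 0.43 without WT replicate 1. Snrnp70, a U1 protein whose symbol fell outside the rule, went the other way. It read 9.94 and 10.02 in Klf7-/- arrays, against 9.69 and 9.58 in WT arrays, a difference of 0.34 ± 0.16 (SE) without overlap.

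Of the 49 splicing genes, 11 had several probe sets, and in 2 of these, Sf3b4 and Snrpc, the probe sets gave opposite signs. Snrpd2, Srsf3, Hnrnpk and Hnrnpf kept one sign over all of theirs. Genes of the hnRNP and Snrp families have many processed copies in the genome, so RNA from near-identical copies could add to a probe set's signal; where each probe set maps was not checked.

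**Figure D4:**
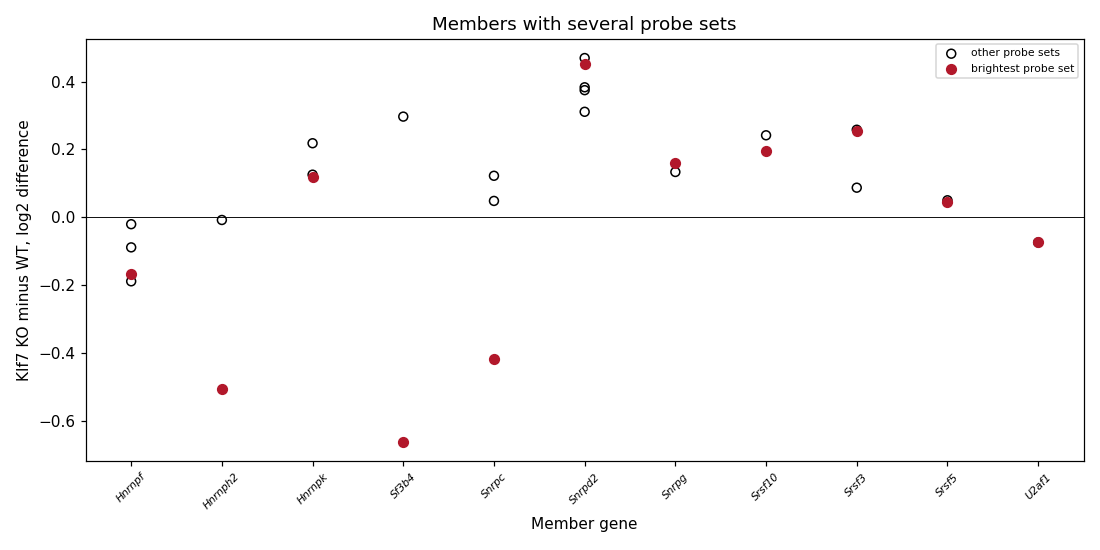
Log2 difference, Klf7-/- minus WT (y axis), of every probe set of the 11 splicing genes with several (x axis); the filled point is the brightest, used throughout, and open points are the others. Sf3b4 and Snrpc have points on both sides of 0, at -0.66 and 0.30 and at -0.42 to 0.12.

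Beyond these genes, 111 of 119 other splicing and RNA-binding genes listed were measured, and 0 passed the limma threshold. Their median difference was -0.000692, with 55 above 0 and 56 below, and 22 were higher and 10 lower without overlap, together 28.8%, beside 33.2% of all genes. At an unadjusted limma p under 0.05 there were 5, a share of 4.5% beside 4.81% over all genes. These 5, Snrnp25, Lsm1, Xab2, Pcbp2 and Eftud2, were higher in Klf7-/- arrays. Bud31, Snrnp27, Khdrbs1 and Bcas2, described below, were not among them. Bud31, a component of the activated spliceosome, read 7.73 and 6.34 in Klf7-/- arrays, against 8.89 and 7.99 in WT arrays, a difference of -1.40 ± 0.57 (SE). Snrnp27, a tri-snRNP protein, read 7.34 and 6.01 in Klf7-/- arrays, against 7.65 and 7.82 in WT arrays, a difference of -1.07 ± 0.46 (SE). In both genes Klf7-/- replicate 2 was far below the rest, and without it the differences were -0.71 and -0.40.

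Khdrbs1, which encodes Sam68, differed by -0.38 ± 0.23 (SE), and by -0.12 without WT replicate 1. The largest positive difference was that of Lsm1, part of the cytoplasmic decay ring, at 0.76 ± 0.24 (SE), but its mean log2 intensity of 5.39 was below the median gene's 5.77. Among genes brighter than that median and without overlap, Pcbp2, a poly(C)-binding protein, differed by 0.64 ± 0.23, Snrnp25, a protein of the minor spliceosome, by 0.63 ± 0.18, and Bcas2, a Prp19 complex member, by 0.62 ± 0.25 (SE). The Bcas2 value was 0.34 without Klf7-/- replicate 1. Snrnp25 read 7.70 and 7.49 in Klf7-/- arrays, against 6.86 and 7.07 in WT arrays, so its groups were well apart. Of the subgroups, the one headed tri-snRNP and catalytic core had 9 of 49 genes higher and 3 lower without overlap. It also held genes of other particles and of RNA decay, and Snrnp70, Snrnp25, Lsm1 and Lsm11 were among its higher genes. SR related proteins and SR kinases had 3 and 1 of 13, and branch site and 5' site accessory factors 4 and 2 of 18. Other RNA-binding regulators had 5 and 4 of 24, and exon junction and decay factors 1 and 0 of 7. The shares over all genes were 14.5% and 18.6%.

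**Figure D5:**
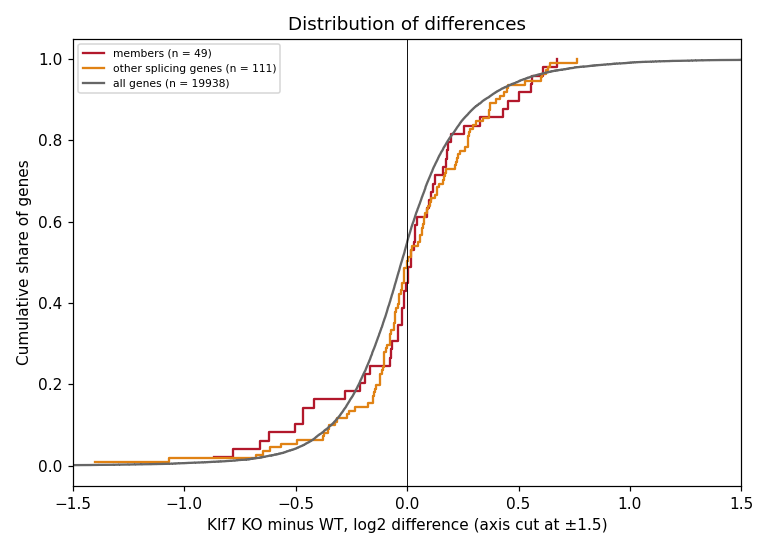
Cumulative share of genes (y axis) by log2 difference, Klf7-/- minus WT (x axis, drawn from -1.5 to 1.5), for the 49 splicing genes (red), the 111 other splicing genes (orange) and all 19938 genes (grey). The 3 curves cross 0 close to their medians of 0.02, -0.000692 and -0.03, and no splicing gene lies beyond -0.87 or 0.67.

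Across the whole series, median intensity per array was 51.01 to 52.26 over tested probe sets, and 47 to 48 of the 49 splicing genes read above it on each array. The X-inactivation RNA Xist read 11.76 and 11.58 in Klf7-/- arrays, against 5.24 and 4.80 in WT arrays, and Y-linked genes ran the other way, so genotype and donor sex cannot be told apart. Klf7 itself read 6.59 and 6.18 in Klf7-/- arrays, against 5.95 and 6.10 in WT arrays; a probe set outside the deleted part would not check the labels. Of 9 stem and progenitor markers measured, out of 11 listed, 6 were higher and 1 lower in Klf7-/- without overlap. Together that was 77.8%, beside 33.2% of all genes. Slamf1, one of the 6, was below the array median throughout, and Mecom, the 1 lower, differed by -0.71 ± 0.25 (SE). The summed intensity of the 9 was 4819 to 4875 in Klf7-/- arrays, against 3485 to 3913 in WT arrays. Of 20 mature lineage markers measured, out of 23 listed, 3 were higher and 1 lower without overlap, together 20%. Their summed intensity was 2692 in Klf7-/- replicate 1 and 1646 in Klf7-/- replicate 2, against 1966 and 1827 in WT arrays. Of the 5 granulocyte markers, 4 were highest on Klf7-/- replicate 1 and 1 on WT replicate 2. Among them, S100a8 read 9.59 on Klf7-/- replicate 1 and 7.54 on Klf7-/- replicate 2. Adgre1, Cd3d, Cd79a, Klf1, Ltf, Ly6g and Ms4a1 were below the array median throughout. The part of these markers in the splicing gene values was not tested, and on bulk arrays a change in cell makeup and a change in RNA per cell cannot be told apart.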

How the data were processed

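The authors deposited a single table with an intensity for each probe set on each array. Per the submitters' processing notes these were made with RMA and Affymetrix Expression Console; no version or setting is given. Values reached 17720.8, so the deposited intensities were read as linear and log2 was taken. Of 35554 probe sets, 6615 that precede the first annotated one were left out as presumed controls, and 28939 were tested. Symbols came from the platform annotation, in which 21789 probe sets had 1 gene symbol, 1621 had several and 5529 tested ones were unlisted. For a gene with several probe sets, the brightest on average over the 4 arrays was used. RefSeq (GRCm38.p6) matched all 49 splicing genes and gave chromosomes, with a promoter entry for 42. Per the labels, a NuGen Ovation kit amplified the RNA ahead of hybridization.

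Klf7-/- was compared with WT by a two-sided limma test (version 3.58.1 in R 4.3.3; lmFit, then eBayes; p-values adjusted by Benjamini-Hochberg across the 28939 probe sets, threshold 0.05, 2 residual degrees of freedom). All p-values of genes come from limma. Differences carry the moderated SE, and their 95% confidence intervals are from the same fit. An exact permutation test with 2 arrays against 2 cannot go below 0.333. Groups and replicate numbers came from the titles. The steps were tested on simulated data. The number of arrays limits the precision. The genes and lists were chosen with earlier results of these data known. The genes named were the disease genes, any past the threshold, the 6 per direction with the largest difference among those without overlap, the extremes of each class, the 3 per direction with the largest difference among other splicing genes without overlap and brighter than the median gene, and the widest disagreements between probe sets; others, such as the remaining class members and the Lsm genes, were named after their values were seen. Alternatives were 2 further normalizations, an offset of 32, a filter on dim probe sets, 2 variance models, the replicate number as a block, the mean of all probe sets, the leading probe sets kept, updated symbols, X and Y genes left out, and each array left out.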

Additional observations from a re-analysis of the deposited data

How the results depend on the processing

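The count of splicing genes past the limma threshold was 0 in every one of the alternatives run, as was that of other splicing genes; 3 and 5 had an unadjusted p under 0.05 in the fit reported. Both counts were also 0 with the replicate block. The deviations of same-numbered arrays correlated at 0.0434 across probe sets, and the labels do not say that a number marks a shared mouse. The count without overlap, 18, was 16 to 18 in the alternatives that keep all 4 arrays and 29 to 36 when one array was dropped, since 3 readings overlap less easily than 4. The median over splicing genes, 0.02, was -0.00606 with quantile normalization again and ran from -0.0208 to 0.0846 when one array was dropped. The median level on single arrays spread by 0.19 within a group (SD), which is not directly comparable. Taken gene by gene, replicate 1 minus replicate 2 had a median of 0.07 in Klf7-/- and 0.03 in WT. For the genes named one by one, 355 values under alternatives had the sign and the call of the reported fit, while 8 turned sign, each when one array was dropped; the cause was not tested. Leaving out an array gave -0.37 to 1.27 for Snrpd2, -0.52 to 0.43 for Snrpa1, -0.28 to 0.25 for Srsf2, -0.18 to 0.0295 for U2af1, -0.0922 to 0.27 for Sf3b1 and -1.04 to 0.21 for Snrpc. No gene passed the threshold to begin with, so keeping its side says little. Signal over background was not used here.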
